A study of Mus musculus with 4 samples.

Results

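A set of 10 genes that mark fat cells was followed through the lung transcriptome of Dnah9 knockout mice. They are the adipokine genes Cfd, Adipoq, Retn and Lep, the lipid droplet genes Plin1, Plin4, Cidea and Cidec, and the metabolic genes Car3 and Pck1, 10 of the 21931 genes in the deposited table, found there by symbol. They were chosen on results from these same libraries, in which Cfd and other fat cell markers lay below wild type in the knockouts, so their values in that comparison are a description with no test. RNA sequencing was done on lung tissue of untreated C57BL6 mice aged 2 months. The 4 libraries were 2 of the genotype Dnah9 knockout, 1 of a genotype given in the labels as Hez with no further explanation, and 1 wild type. Dnah9 encodes a heavy chain of the outer dynein arm, a motor of beating cilia. The labels name no allele, deleted exon, sex or litter, and do not say whether an animal or a pool of animals lies behind each library.

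White fat cells store triglyceride in a single large lipid droplet whose surface proteins, perilipins and CIDE proteins, govern droplet growth and the release of fatty acids. The same cells secrete hormones and the complement protease factor D, also called adipsin, the product of Cfd. In the mouse chest, fat lies around the mediastinum, the heart and the large airways and vessels at the lung root.

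The libraries held between 15860478 and 16553480 reads. Dnah9 itself had 240 and 254 reads in knockout libraries 1 and 2, against 420 in Hez and 917 in wild type. Its log2 fold was -1.88 against wild type (edgeR adjusted p = 0.00864) and -0.73 against Hez (edgeR adjusted p = 0.599). Lung markers such as Sftpc, Scgb1a1 and Lyz2 were abundant, with mean levels of 12690, 29910 and 4670 FPKM (reads scaled to gene length and library total). Fat cell genes lay far below them, at mean levels of 0.142 FPKM for Lep to 50.4 FPKM for Cfd. By mean FPKM the order was Cfd, Car3 (24.997), Cidec (8.67), Adipoq (6.81), Plin4 (4.51), Pck1 (2.01), Retn (1.62), Plin1 (1.46), Cidea (0.948) and Lep.

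The sequence just before the start of transcription is shown for Cfd, for Adipoq, the member whose profile over the libraries lay closest to it, and for Plin1 and Lep, which hold a match to a C/EBP-type site. C/EBP factors and PPAR gamma drive fat cell differentiation. Each line is the 150 bases before the annotated start, 5′ to 3′ on the gene's strand, from RefSeq on GRCm38.p6, an older build than that of the counts. The stretches are chr10:79890703-79890852 for Cfd, chr16:23146386-23146535 for Adipoq, chr7:79732777-79732926 (minus strand) for Plin1 and chr6:29060071-29060220 for Lep. Capitals mark matches to CCAAT or TTNNGCAA on either strand.
Cfd: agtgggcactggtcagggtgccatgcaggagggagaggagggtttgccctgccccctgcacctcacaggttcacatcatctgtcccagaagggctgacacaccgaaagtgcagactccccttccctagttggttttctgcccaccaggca
Adipoq: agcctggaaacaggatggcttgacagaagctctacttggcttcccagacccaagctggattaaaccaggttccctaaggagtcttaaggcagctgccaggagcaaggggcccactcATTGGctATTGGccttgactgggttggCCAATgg
Plin1: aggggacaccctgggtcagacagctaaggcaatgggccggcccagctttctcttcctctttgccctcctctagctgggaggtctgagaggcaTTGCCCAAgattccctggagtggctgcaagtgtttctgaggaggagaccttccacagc
Lep: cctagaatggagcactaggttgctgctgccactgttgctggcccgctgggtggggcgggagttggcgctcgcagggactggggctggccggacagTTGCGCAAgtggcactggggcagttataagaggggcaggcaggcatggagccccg
RefSeq start sites were searched for 8 members, with 9 start sites in all. Car3 had no matching start site, and Cidea was left out of the search, so the counts below do not cover these genes. In the 250 bases before the start, searched on both strands, TTNNGCAA occurred at 3 of the 9 start sites (Plin1, Cidec and Lep), against 9.56% of 32851 start sites of all genes. CCAAT occurred at 2 of the 9 (Adipoq and Plin4), against 33.8% of all. The nuclear receptor motif AGGTCA and the TATA box TATAAA occurred at 0 of the 9, against 14.0% and 12.4% of all. These matches describe letters in the sequence and are not binding data.

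Cfd stood at 50.4% and 43.8% of its wild-type level in the knockout libraries and at 95.6% in Hez. It had 525 and 446 reads in knockout libraries 1 and 2, against 1012 in Hez and 1038 in wild type. In CPM, which are reads scaled to a common library total with TMM factors, these were 32.3 and 28.1, against 61.2 and 64.1. The 95% exact Poisson intervals, which cover counting error only, were 29.6 to 35.2 and 25.5 to 30.8 CPM in the knockouts, 57.5 to 65.1 in Hez and 60.2 to 68.1 in wild type. The knockout pair thus lay apart from the other two libraries, which overlapped with each other. The knockout mean was 30.2 ± 2.98 CPM (SD, n = 2).

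Adiponectin is a hormone made almost only by fat cells and raises insulin sensitivity in its targets. Its gene Adipoq had 100 and 82 reads in the knockout libraries, against 222 in Hez and 208 in wild type. In CPM these were 6.15 and 5.16, against 13.4 and 12.8, so both knockout libraries again lay below both of the others.

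Resistin, an adipokine that in mice comes from fat cells and opposes insulin, is encoded by Retn. It had 20 and 23 reads in the knockout libraries, against 70 in Hez and 54 in wild type. Leptin, the hormone that reports fat stores to the brain, was near the detection limit: Lep had 5 and 3 reads in the knockout libraries, against 14 in Hez and 9 in wild type. The Lep intervals were 0.0998 to 0.717 and 0.0389 to 0.552 CPM in the knockouts. They overlapped those of Hez (0.463 to 1.42) and wild type (0.254 to 1.05). Overlap of such intervals is not a test of a difference, and edgeR did not call Lep against Hez.

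Perilipin 1, the main guard of the fat cell droplet against lipases, is encoded by Plin1. It had 77 and 60 reads in the knockout libraries, against 183 in Hez and 124 in wild type. Plin4, a perilipin of small nascent droplets, had 413 and 310 reads in the knockout libraries, against 463 in Hez and 672 in wild type. Plin4 differed from the genes above in that Hez, at 28.0 CPM, lay closer to knockout library 1 (25.4 CPM) than to wild type (41.5 CPM), and the Hez interval of 25.5 to 30.7 CPM overlapped that of knockout library 1 (23.0 to 28.0).

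CIDE proteins sit where droplets touch and let lipid pass from the smaller to the larger. Cidea, best known from brown fat, had 4 and 7 reads in the knockout libraries, against 35 in Hez and 23 in wild type. In CPM these were 0.246 and 0.441, against 2.12 and 1.42, with knockout intervals reaching 0.908 at most and the wild-type interval starting at 0.9. Cidec, the white fat member that makes the single large droplet, did not follow: it had 284 and 212 reads in the knockout libraries, against 274 in Hez and 276 in wild type. Cidec thus stood at 102% and 78.3% of wild type in the knockout libraries and at 97.3% in Hez, and the groups overlapped.

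Car3 encodes carbonic anhydrase III, an abundant protein of fat cells, skeletal muscle and liver. It had 820 and 617 reads in the knockout libraries, against 1847 in Hez and 1384 in wild type. In CPM these were 50.4 and 38.8, against 112 and 85.4. The knockout libraries lay lowest, and Hez lay above wild type with intervals that did not overlap (107 to 117 and 81.0 to 90.1 CPM).

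Pck1 encodes the phosphoenolpyruvate carboxykinase that supplies glycerol phosphate for triglyceride in fat and makes glucose in liver and kidney. It split the knockout pair: it had 160 and 37 reads in knockout libraries 1 and 2, against 135 in Hez and 118 in wild type. Knockout library 1 was the highest and knockout library 2 the lowest of the 4, and the ratio between the knockout libraries was 4.23, against 0.558 to 1.63 for the other 9 members.

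**Figure D1:**
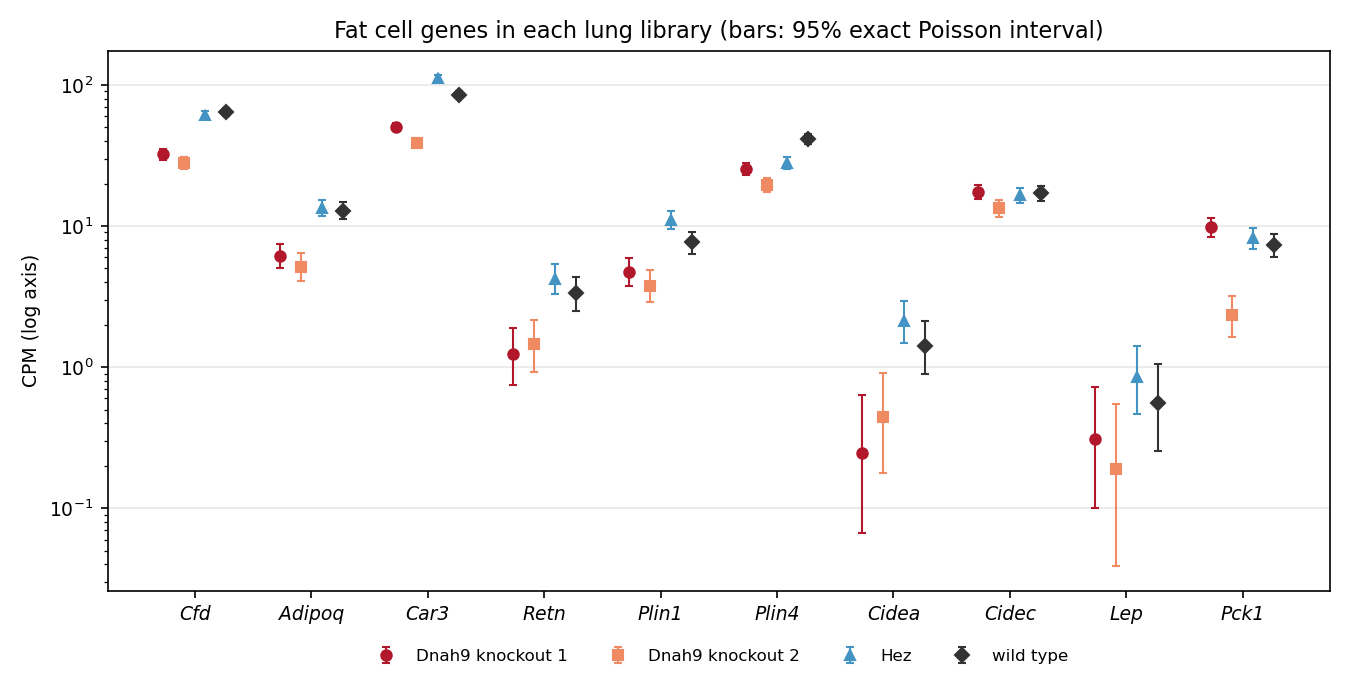
Level of each of the 10 fat cell genes in CPM on a log axis, 1 point for each library, with 95% exact Poisson intervals as bars. For 8 genes both knockout points lie below Hez and wild type, while Cidec is level (13.3 to 17.5 CPM) and Pck1 is split between the knockout libraries (9.84 and 2.33 CPM).

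Both knockout libraries lay below both Hez and wild type for 8 of the 10 members, all but Cidec and Pck1, where 16.3% of all 15055 tested genes did so. The count was also 8 against wild type alone, where 33.4% of all genes had both knockout libraries lower, and 8 against Hez alone, where 31.9% did. Since such values chose the members, these counts describe them and nothing is read from them. All 10 members passed the filter on low counts, but Lep reached 10 reads in Hez alone and Cidea in Hez and wild type alone.

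The ratio of Cfd to other members was steadier over the libraries for some than for others. Of the 9 ratios to Cfd, that with Adipoq varied least: by FPKM, Cfd stood at 7.86 and 8.15 times Adipoq in the knockout libraries, 6.83 times in Hez and 7.47 times in wild type. The ratio of Cfd to Car3 was 1.99 and 2.25 in the knockouts, 1.7 in Hez and 2.33 in wild type. The ratio of Cfd to Cidec was 3.72 and 4.23 in the knockouts, against 7.43 in Hez and 7.57 in wild type. As a share of wild type, knockout library 2 was the lower of the pair for 8 members, with Retn (36.9% and 43.4%) and Cidea (17.3% and 31.0%) as exceptions.

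The series title names knockout and wild-type lungs, and this comparison was the basis on which the genes were picked. The fitted log2 folds were -1.09 for Cfd (SE 0.126), -1.18 for Adipoq (SE 0.246), -1.31 for Retn (SE 0.453) and -1.14 for Lep (SE 0.989). For the droplet genes they were -0.85 for Plin1 (SE 0.293), -0.89 for Plin4 (SE 0.179), -2.03 for Cidea (SE 0.739) and -0.15 for Cidec (SE 0.218). They were -0.94 for Car3 (SE 0.147) and -0.26 for Pck1 (SE 0.641). The median over the 10 members was -1.01, beside 0.00 (7365 negative, 7690 positive) over all genes tested. Cfd was the 1 member among the 6 genes that edgeR called lower, which are 0.0399% of all genes tested, and nothing is read from that count because this comparison chose the members. Without the Hez library edgeR called 0 members, as it did with no filter or a stricter one, where 8, 4 and 4 genes were called in all. Cfd was the 1 member called by edgeR with DESeq2 size factors (9 of 15055 genes called). The same held with wild type and Hez as one group (2 of 14674). The DESeq2 Wald test called Car3 and Cfd, among 16 of 8925 genes, and limma called 0 members. Nothing is read from these calls either. Without knockout library 2 the folds of Cidec and Pck1 were positive, at 0.035 and 0.43. Wild type is a single library, so standard errors rest on the spread of the knockout pair and of other genes.

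**Figure D2:**
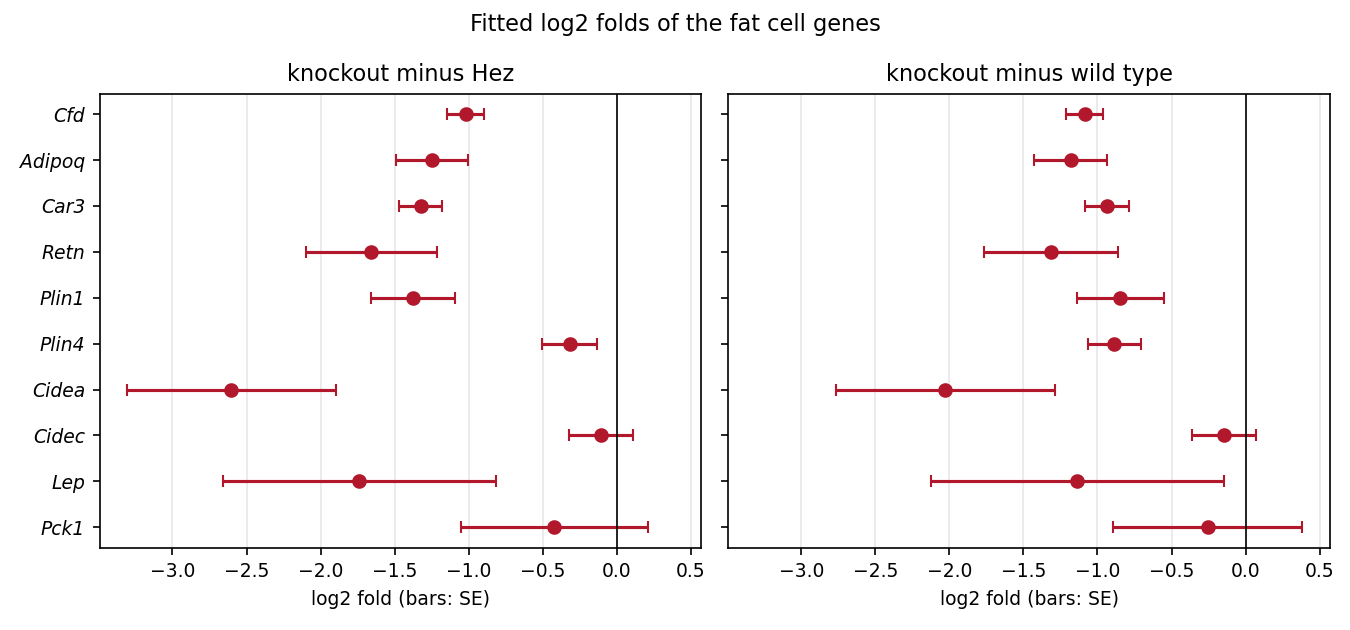
Fitted log2 folds of the 10 fat cell genes with standard errors as bars, knockout minus Hez on the left and knockout minus wild type on the right. The points run from -2.60 to -0.11 against Hez and from -2.03 to -0.15 against wild type, with Cidec and Pck1 nearest to 0 against wild type, and the panels share the knockout libraries.

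Against the Hez library, which shares the knockout libraries with the comparison above, the log2 folds were -1.02 for Cfd (SE 0.127) and -1.32 for Car3 (SE 0.145). They were -1.25 for Adipoq, -1.38 for Plin1, -1.66 for Retn, -1.74 for Lep and -2.60 for Cidea. They were nearest to 0 for Plin4 (-0.32), Cidec (-0.11) and Pck1 (-0.42), and without knockout library 2 the last pair stood at 0.074 and 0.26. The members were chosen for low values in these same knockout libraries, so the counts of calls that follow are a description and no independent test. The edgeR quasi-likelihood test called 0 of the 10 members, and it called 0.00664% of all genes, 1 gene of 15055. At an unadjusted p below 0.05 there were 6 of the 10 members and 694 of all genes. The DESeq2 Wald test called 7 of 15055 genes, among them Car3 and Cfd, both lower in the knockouts. Calls of Cfd and Car3 thus depended on the test used, and a missed threshold does not show equal levels.

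Hez against wild type sets 1 library against 1, and no test of it was run. Cfd, Adipoq, Cidec and Pck1 were close, with log2 CPM differences of -0.07, 0.06, -0.04 and 0.16. Retn, Car3, Lep, Plin1 and Cidea were higher in the Hez library than in the wild-type library, by 0.33, 0.39, 0.52, 0.53 and 0.54, and Plin4 was lower (-0.56). The Poisson intervals of Hez and wild type overlapped for Retn, Lep and Cidea and lay apart for Car3, Plin1 and Plin4. On these values, which include a prior count of 2, a 1.5-fold difference was reached by 0 of the 10 members. Of all genes 9.64% reached it in either direction. The prior count shrinks differences at low counts: in plain CPM, Lep in Hez stood at 152% of wild type, on 14 and 9 reads.

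Further genes of fat cell biology, in 11 lists, held 110 genes of the table, of which 103 could be tested. Against wild type 0 of the 103 were called lower and 0 higher by edgeR (background 0.0399% and 0.0133% of all genes), and 11 had an unadjusted p below 0.05, beside 780 of all 15055 genes. Against Hez 0 were called in either direction and 16 of the 103 had an unadjusted p below 0.05, beside 694 of all 15055 genes. In both comparisons the share below 0.05 was larger among the listed genes than among all genes. The lists were chosen with earlier results of these data known, so nothing is read from these shares. List medians and counts are given against wild type and then against Hez, where the median of all genes was 0.0099. The named genes below are the 3 of each list with the highest mean FPKM, unless another reason is given.

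Among other secreted products of fat cells, 8 of 12 log2 folds against wild type were negative, with a median of -0.23 beside 0.00 for all genes, and 11 of 12 were negative against Hez (median -0.14). Apoe, a lipid carrier also made by macrophages, stood at 0.08 (SE 0.0892), and Apln, an adipokine peptide also made by endothelium, at 0.23 (SE 0.124). Angptl4, an inhibitor of lipoprotein lipase, had 104 and 31.4 CPM in knockout libraries 1 and 2, against 88.5 in Hez and 80.9 in wild type. Like Pck1, Angptl4 was highest in knockout library 1 and lowest in knockout library 2.

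The receptors of the fat hormones stood close to 0 in fold. The log2 folds of Adipor1 and Adipor2, which bind adiponectin, were 0.05 (SE 0.0962) and -0.05 (SE 0.102), and that of the leptin receptor gene Lepr was 0.01 (SE 0.1). Lepr had 144 and 141 CPM in the knockout libraries, against 152 in Hez and 141 in wild type.

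Factor D cleaves factor B once it is bound to C3b and so starts the alternative complement pathway. Of 9 tested genes around this step 7 had positive log2 folds against wild type (median 0.08) and 6 against Hez (median 0.13). Hc, which encodes complement C5, had a log2 fold of 0.24 (SE 0.0761) and C3 of 0.12 (SE 0.0784). C3 had 893 and 847 CPM in the knockout libraries, against 843 in Hez and 801 in wild type. None of the 9 passed the test in either direction (the count at an unadjusted p below 0.05 was 1, Hc).

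Other droplet proteins had a median log2 fold of 0.07 with 3 of 11 negative against wild type, and of 0.0061 with 5 negative against Hez. The caveolar genes Cav1 and Cavin1, abundant in lung endothelium as well as in fat, had log2 folds of 0.14 (SE 0.0914) and 0.00 (SE 0.0823), and the hypoxia-inducible droplet gene Hilpda of 0.09 (SE 0.139). Plin5, named because it is the neighbour of Plin4, had 2.15 and 2.96 CPM in the knockout libraries, against 3.75 in Hez and 4.14 in wild type.

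Lipolysis genes had a median of -0.08 with 8 of 10 negative against wild type, and of -0.21 with 8 negative against Hez. The triglyceride lipase gene Pnpla2 had a log2 fold of -0.02 (SE 0.107), the monoglyceride lipase gene Mgll of 0.00 (SE 0.11) and the fatty acid carrier gene Fabp5 of 0.22 (SE 0.105). Fabp4, the fatty acid carrier of fat cells and capillaries, was singled out after its values were seen. It had 25.5 and 15.3 CPM in the knockout libraries, against 48.8 in Hez and 38.9 in wild type, a log2 fold of -0.93 (SE 0.252, edgeR adjusted p = 0.566) against wild type that did not pass.

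Fatty acid uptake and triglyceride synthesis had a median of -0.02 with 5 of 10 negative against wild type, and of -0.09 with 7 negative against Hez. Against wild type the fatty acid transporter gene Cd36 stood at 0.10 (SE 0.0901), Gpihbp1, which anchors lipoprotein lipase to capillaries, at 0.01 (SE 0.102) and Gpam at 0.00 (SE 0.0998). Lipogenesis genes had a median of 0.06 with 4 of 12 negative against wild type, and of -0.0072 with 6 negative against Hez. Against wild type the desaturase genes stood at -0.02 (Scd1, SE 0.056) and 0.08 (Scd2, SE 0.079) and the fatty acid synthase gene Fasn at 0.16 (SE 0.0869). Many of these genes are also used by alveolar type 2 cells and capillary endothelium.

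Fat cell transcription factors had a median of 0.14 with 4 of 12 negative against wild type, and of -0.04 with 7 negative against Hez. Against wild type Cebpa stood at 0.16 (SE 0.121), Cebpb at 0.43 (SE 0.114, edgeR adjusted p = 0.547) and Cebpd at 0.36 (SE 0.146, edgeR adjusted p = 0.908). Pparg, the master regulator of fat cells that lung macrophages also use, was singled out after its values were seen, with 12.8 and 15.1 CPM in the knockout libraries, against 12.6 in Hez and 11.5 in wild type. Insulin response genes had a median of -0.03 with 5 of 8 negative against wild type, and of -0.25 with 6 negative against Hez. Against wild type the kinase gene Akt2 stood at 0.13 (SE 0.101), Pik3r1 at -0.05 (SE 0.101) and the insulin receptor gene Insr at -0.02 (SE 0.1). Slc2a4, the glucose transporter of fat and muscle, was singled out after its values were seen, with 9.41 and 8.68 CPM in the knockout libraries, against 14.0 in Hez and 15.1 in wild type (log2 fold against wild type -0.73, edgeR adjusted p = 0.624).

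Brown fat genes were scarce. Ucp1, the uncoupling protein that defines brown fat, had 0 reads in both knockout libraries, 1 in Hez and 0 in wild type, and Elovl3 had 0 reads in all 4 libraries. The 7 tested brown fat genes had a median of -0.38 with 5 negative against wild type, but of 0.07 with 2 negative against Hez. Cox7a1 had 1.97 and 1.38 CPM in the knockout libraries, against 3.63 in Hez and 3.02 in wild type. Pank1 stood at 0.30 (SE 0.148) and Cox8b at -0.41 (SE 0.879). Preadipocyte and adventitial stroma genes had a median of -0.04 with 7 of 9 negative against wild type, but of 0.09 with 2 negative against Hez. Against wild type the stem cell antigen gene Ly6a stood at -0.02 (SE 0.138), the adhesion gene Icam1 at 0.32 (SE 0.113, edgeR adjusted p = 0.827) and the matrix gene Dcn at -0.41 (SE 0.0921, edgeR adjusted p = 0.402).

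**Figure D3:**
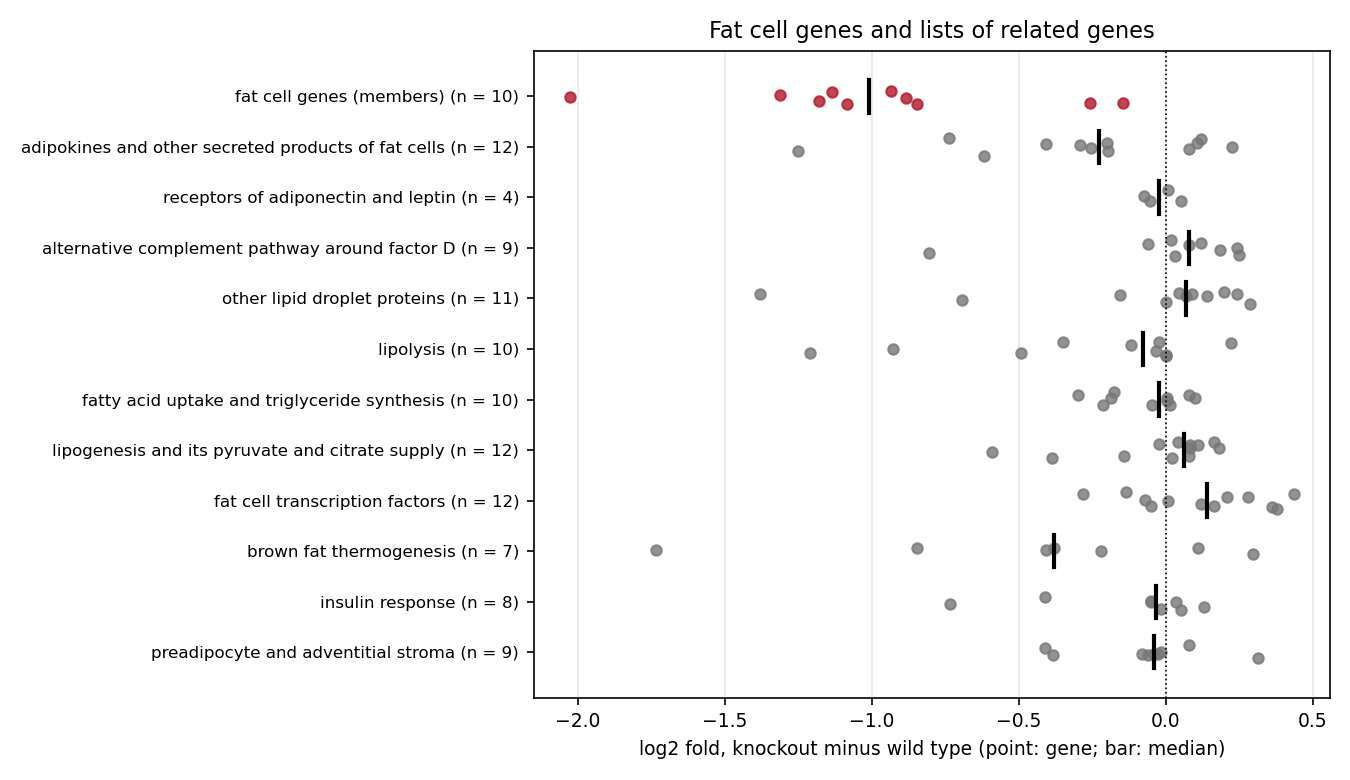
Log2 folds of knockout minus wild type, 1 point for each tested gene, for the 10 fat cell genes and for 11 lists of related genes, with the median as a bar. The fat cell genes have a median of -1.01 and the lists have medians from -0.38 to 0.14. The fat cell genes were chosen on this comparison, so nothing is read from the gap between the medians.

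Markers of some other cells were also lower in the knockout libraries, and their part in the result was not tested. In a bulk sample, fewer cells of a type and less RNA per cell cannot be told apart. The summed level of the 10 fat cell genes was 148 and 113 CPM in the knockout libraries, against 257 in Hez and 241 in wild type. Cardiac muscle markers, which the mouse lung expresses around its veins, summed to 743 and 874 CPM in the knockouts, against 1129 in Hez and 1172 in wild type, with 9 of 9 tested log2 folds negative against wild type and 9 of 9 against Hez. Their most abundant members Actc1, Myl7 and Myh6 had log2 folds against wild type of -0.54, -0.57 and -0.40. Nppa had 4 and 0 reads in the knockout libraries, against 4 in Hez and 37 in wild type. Myl2 was near the detection limit in every library, with 3 and 0 reads in the knockouts, against 2 in Hez and 3 in wild type.

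Mesothelial markers, of the lining of the lung surface, summed to 363 and 278 CPM in the knockouts, against 413 in Hez and 379 in wild type, with 8 of 8 log2 folds negative against wild type and 7 of 8 against Hez. The list medians were -0.38 against wild type and -0.79 against Hez. Krt19, Upk1b and Gpm6a led by FPKM, with log2 folds against wild type of -0.27, -0.01 and -0.04, each smaller in size than the list median. Against Hez these genes stood at 0.29, -0.47 and -0.57. Skeletal muscle markers summed to 26.1 and 29.3 CPM in the knockouts, against 29.4 in Hez and 40.5 in wild type, with both knockout sums below the others and library 2 close to Hez. Their leading genes Tnnt3, Ckm and Mylpf had log2 folds against wild type of -1.503, -0.32 and -0.10, with 7 of 8 tested genes negative, and against Hez 3 of 8 were negative (median 0.15, Tnnt3 at 0.049). Myh1 had 0 and 9 reads in knockout libraries 1 and 2, against 2 in Hez and 4 in wild type.

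Club and ciliated airway markers summed to 18900 and 16071 CPM in the knockouts, against 17627 in Hez and 22466 in wild type. Against wild type 10 of 10 were negative (median -0.49) and 3 called lower, among them Scgb3a1 at -1.06 (edgeR adjusted p = 0.00864), while the most abundant, Scgb1a1, Cyp2f2 and Sec14l3, had log2 folds of -0.32, -0.42 and -0.18. Against Hez 3 of 10 were negative (median 0.09), and Scgb3a1 stood at 0.40 (edgeR adjusted p = 0.65). By summed CPM, Hez lay between the knockout libraries for this list and above wild type for the fat cell genes. Most of the airway sum was Scgb1a1 alone, with 14774 and 12087 CPM in the knockouts, against 13360 in Hez and 16734 in wild type. The place of Hez in that sum is thus largely that of Scgb1a1. In the fat cell sum, Car3 alone had 112 CPM in Hez and 85.4 in wild type. Cfd, Plin4 and Cidec were lower in Hez than in wild type, and the other members were higher.

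Liver markers were near 0, at 4.73 and 5.29 CPM summed over 8 genes in the knockouts, against 4.84 in Hez and 5.19 in wild type, most of it Alb (mean 1.64 FPKM). Markers of thymus and lymph node T cells summed to 60.1 and 51.5 CPM in the knockouts, against 47.9 in Hez and 46.9 in wild type, and the thymic gene Ptcra had 0 reads in all 4 libraries. Ccr7, Cd1d1 and Cd8a led this list, with log2 folds against wild type of 0.55, -0.01 and 0.32. Lung epithelium and endothelium markers summed to 47527 and 42778 CPM in the knockouts, against 42164 in Hez and 44927 in wild type.

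**Figure D4:**
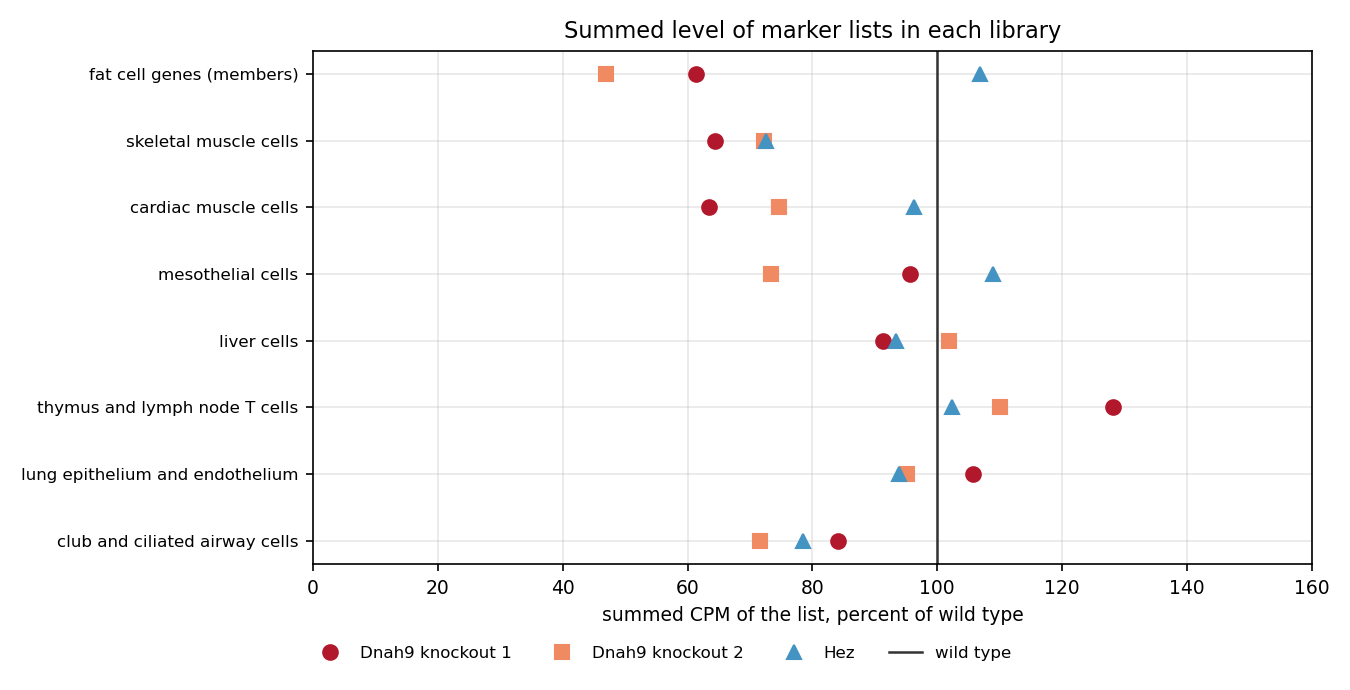
Summed CPM of the fat cell genes and of 7 lists of other cell type markers as a percent of the wild-type library (vertical line at 100), 1 point for each other library. The fat cell genes stand at 61.4% and 46.9% in the knockout libraries and at 107% in Hez, and cardiac muscle markers at 63.4% and 74.6% against 96.3% in Hez. The fat cell genes were chosen for low values in these same knockout libraries, so nothing is read from their distance to the other lists.

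Genes with a profile most like Cfd were sought among 12078 genes that are no members and averaged 5 CPM or more. Likeness was the root-mean-square distance between log2 CPM values over the 4 libraries, each gene centred on its own mean, so that 0 means the same profile. The closest were Smpx, a small muscle protein gene (distance 0.0998), the membrane mucin gene Muc16 (0.119), the clock gene Per2 (0.148), Fkbp5, a cochaperone of the glucocorticoid receptor (0.151), and T2 (0.151). Muc16 had 7.19 and 5.35 CPM in the knockout libraries, against 13.9 in Hez and 12.2 in wild type. Fkbp5 had 28.5 and 18.9 CPM in the knockout libraries, against 49.4 in Hez and 55.2 in wild type. Of the members, Adipoq lay at 0.0891 from Cfd, nearer than any of these genes, and Car3 at 0.177 with 6 other genes nearer. Plin1 (0.214), Lep (0.23), Retn (0.272) and Plin4 (0.29) followed with 14 to 56 genes nearer. Cidec at 0.463, Cidea at 0.604 and Pck1 at 0.678 were farther, with 1317, 9954 and 11504 genes nearer to Cfd. The distance depends on the size of a difference as well as on its direction. Cidea was lower in both knockout libraries as Cfd was, but with larger log2 folds, at -2.03 against wild type and -2.60 against Hez. The members were chosen for low values in these same knockout libraries, so their nearness to Cfd is in part built in. The floor of 5 CPM was not applied to members, and Retn, Lep and Cidea lay below it. With 4 libraries such distances only describe these samples.

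The members do not sit together in the genome: the 10 genes lie on 9 chromosomes. On GRCm39, as deposited, Cfd (ENSMUSG00000061780) spans chromosome 10 from 79726687 to 79728489 and Adipoq (ENSMUSG00000022878) chromosome 16 from 22965286 to 22976778. Car3 (ENSMUSG00000027559) spans chromosome 3 from 14928572 to 14937583, Retn (ENSMUSG00000012705) chromosome 8 from 3705770 to 3710110 and Plin1 (ENSMUSG00000030546) chromosome 7 from 79369966 to 79382651. Plin4 (ENSMUSG00000002831) spans chromosome 17 from 56407591 to 56416803 and overlaps Hdgfl2, on the other strand, by 17 bases, the one overlap among the members. Hdgfl2 had 1056 and 900 reads in the knockout libraries, against 999 in Hez and 992 in wild type.

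The nearest tested gene on each side of each member gave 20 neighbours. Their median log2 fold against wild type was 0.07, beside -1.01 for the members, and edgeR called 0 of the neighbours. The members were chosen on this comparison and the neighbours were not, so nothing is read from the gap between the medians. Both knockout libraries lay below Hez and wild type for 2 of the 20 neighbours, Pex11a beside Plin1 and Plin5 beside Plin4, or 10% beside the 16.3% of all genes. Med16, which lies 2.05 kb from Cfd, had 33.3 and 38.5 CPM in the knockout libraries, against 36.8 in Hez and 38.1 in wild type. St6gal1, the neighbour of Adipoq, had 74.03 and 78.1 CPM in the knockout libraries, against 68.6 in Hez and 66.7 in wild type. Car2, a paralogue of Car3 that lies 13.8 kb from it, had 106 and 122 CPM in the knockout libraries, against 106 in Hez and 105 in wild type.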

How the data were processed

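Lung RNA was sequenced as TruSeq libraries on a HiSeq instrument, per the labels. The authors deposited 1 table of raw read counts per gene and FPKM values. Each deposited FPKM is the count over library total and gene length (66024 nonzero values, relative tolerance 1e-06). The submitters' processing notes name GRCm39 as the build. The aligner, the counter and the strand setting were not stated by the labels or notes. Overlapping genes may therefore share reads. The origin of each library in a separate animal is not stated. Spread between libraries may thus be technical, and p-values measure no more than that spread.

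Counts were scaled by TMM (factors 0.993 to 1.01), filtered with filterByExpr (minimum count 10; 15055 genes kept) and fitted across all genes in 3 groups with the two-sided edgeR 4.0.16 quasi-likelihood test (R 4.3.3). The fit had 1 residual degree of freedom. P-values were adjusted by Benjamini-Hochberg over all genes, with a threshold of 0.05. Each SE is the log2 fold over the root of its F statistic. Hez against wild type used log2 CPM with a prior count of 2. The alternatives were DESeq2 1.42.0, limma 3.58.1 on log2 FPKM with pseudocounts of 0.1, 0.5 and 1, other filters and scaling, other groupings and left-out libraries. Poisson intervals are at the 95% level. Members and lists were chosen with earlier results of these data known; neighbours, start-site motifs and the counts against one library were added after the values were seen. Named genes were all members and, per list, any called gene in the pathway lists or else the 3 with the highest mean FPKM, and for likeness to Cfd the 5 closest at 5 CPM or more. One gene that this rule names is not reported here.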

Additional observations from a re-analysis of the deposited data

How the results depend on the processing

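The 8 genes called for knockout against wild type were 4 with no filter and 4 with a mean of at least 10 CPM, 16 with the DESeq2 Wald test, 1 with limma on log2 FPKM at each of the 3 pseudocounts and 2 with wild type and Hez as one group. The 1 gene called against Hez was 7 with DESeq2 and 0 with limma at pseudocounts of 0.5 and 0.1. Leaving out a knockout library leaves 1 library a group and gave values without a test. Without knockout library 2 the log2 folds of Cidec and Pck1 turned positive, at 0.035 and 0.43 against wild type and at 0.074 and 0.26 against Hez. Without knockout library 1 they were -0.35 and -1.60 against wild type and -0.31 and -1.76 against Hez. The cause was not tested. For the other 8 members every fold kept its sign under all alternatives run, for example -1.19 to -0.99 for Cfd and -1.29 to -1.03 for Adipoq against wild type. The pseudocount moved low genes most, to -0.48 for Plin1 and -0.76 for Retn with limma at a pseudocount of 1. Lep and Cidea have no values with limma and, like Adipoq, Retn, Plin1 and Pck1, none at 10 CPM, because the filters remove them, and Lep has none against wild type without Hez or with Hez pooled in. The Hez differences kept their sign under every prior count and scaling run. Members with 3 to 35 reads a library (Lep, Cidea) are limited by counting error, and single Hez and wild-type libraries limit every comparison. No paired analysis was possible because the labels give the libraries no shared replicate numbers.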

Other observations

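A few further genes of fat metabolism, chosen after their values were seen, had the following levels. Klf15, a transcription factor of fat, muscle and liver, had 47.0 and 23.7 CPM in knockout libraries 1 and 2, against 58.3 in Hez and 43.1 in wild type. The hormone-sensitive lipase gene Lipe had 59.1 and 38.2 CPM in the knockout libraries, against 54.4 in Hez and 49.9 in wild type, so knockout library 1 was the highest and knockout library 2 the lowest. Thrsp, a lipogenic gene, had 5.16 and 3.84 CPM in the knockout libraries, against 11.6 in Hez and 6.79 in wild type, so both knockout libraries were lowest and Hez was highest.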
